A study of Sus scrofa with 20 samples.

Results

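Genes of translation factors and of aminoacyl-tRNA synthetases were followed in hearts of female pigs after repeated or single coronary ischemia. The members were all genes of the array's probe table with a single symbol that begins with EIF and a digit or with EEF1 or EEF2, that is ETF1, or that names an aminoacyl-tRNA synthetase by an amino acid letter before ARS or by EPRS. This gave 61 of the 6765 genes with 1 symbol, read by 93 tested probe sets, and the probe set with the highest mean over the 20 arrays stood for its gene. They comprised 36 initiation factors and regulators of initiation, 6 genes with EEF symbols that were grouped as elongation, and 19 synthetases, of which 13 are cytosolic and 6 mitochondrial. ETF1, EEF2, EEF1A2, EEF2K, EIF4EBP1 and the kinases EIF2AK1, EIF2AK3 and EIF2AK4 are not among the members and were not analysed here.

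Each of 4 groups held 5 pigs with 1 heart array per animal. In RCS, 90 min of low-flow ischemia through a coronary stenosis was given 6 times, 12 h apart. In RCO, a session of 2 coronary occlusions of 10 min, each with 10 min of reperfusion, was given 6 times, 12 h apart, according to the series description, while the sample labels speak of 6 occlusions of 10 min. In SWOP, 2 occlusions of 10 min were given once and hearts were sampled after 24 h of reperfusion. Control pigs were sham-operated. The time from the last episode to sampling in RCS and RCO, the part of the heart wall taken and the age of the pigs are not stated in the sources that were used.

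Protein synthesis starts when a synthetase joins each amino acid to its tRNA. EIF2 then carries the initiator tRNA to the small ribosomal subunit, which EIF3, EIF1 and EIF1A hold in shape for scanning, and the EIF4 factors bring the capped mRNA to it. EIF5B joins the large subunit, and EEF1A, recharged with GTP by the EEF1B complex, delivers each further aminoacyl-tRNA. Under stress, kinases phosphorylate EIF2, which slows its recharging by EIF2B and lets the mRNA of the transcription factor ATF4 be translated. In mammalian cells ATF4 is known to raise transcription of many cytosolic synthetase genes. Mitochondria use their own synthetases, encoded in the nucleus, for the few proteins of the mitochondrial genome. Heart muscle has a high content of mitochondria and a slow turnover of contractile proteins.

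All values are log2 signals of RNA on the array and do not measure translation. In whole tissue, fewer cells of a type and less RNA per cell cannot be told apart. Tests are those of limma over all 23999 tested probe sets, and a gene passed at an adjusted p below 0.05. Cardiac identity of the tissue was borne out on every array by MYH7 and MYL2, the ventricular myosin heavy and light chains, at 14.58 or above and 14.69 or above. Of 10 measured cardiomyocyte markers, 8 were lower in RCS than in control, and the log2 of their summed signal was 17.13 to 17.47 in RCS, 17.40 to 17.54 in RCO, 17.56 to 17.66 in SWOP and 17.61 to 17.68 in control. Of 8 measured macrophage and monocyte markers 5 were higher in RCS, with summed signals of 11.99 to 12.62 in RCS, 11.31 to 13.11 in RCO, 10.76 to 11.49 in SWOP and 10.66 to 11.46 in control. Of 6 fibroblast markers 4 were higher in RCS (14.38 to 15.35 in RCS, 13.14 to 15.14 in RCO, 13.39 to 13.70 in SWOP and 12.66 to 13.73 in control), as were all 3 smooth muscle markers (13.09 to 13.83 in RCS, 12.01 to 13.61 in RCO, 11.95 to 12.84 in SWOP and 11.65 to 12.44 in control). In RCS 2 of 3 skeletal muscle and 2 of 4 adipocyte markers were lower, and the 6 endothelial, 3 T and B cell and 2 erythroid markers did not pass in limma (adjusted p 0.073 to 0.96). The part of these shifts in the results for translation genes was not tested.

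Some arrays stood apart from their groups. The bacterial spike-in spots averaged 11.05 on RCO replicate 1 and 10.87 on SWOP replicate 1, against 10.18 to 10.60 on the other 18 arrays. RCO replicate 1 was the highest RCO array for 24 members and the lowest for 20, and SWOP replicate 1 was the highest SWOP array for 27 and the lowest for 18. RCO replicates 2 and 3 had 3′ minus 5′ differences of the actin control spots of 0.78 and 0.79, against 1.12 to 1.69 on the other RCO arrays. That difference averaged 0.65 ± 0.09 in RCS and 1.55 ± 0.29 in control (SD, n = 5 each; two-sided exact permutation p = 0.00794, the smallest that 252 divisions allow). The same difference was 0.14 higher in RCS than in control for the gapdh control spots (exact permutation p = 0.0238) and 0.12 lower for those of EEF1A1 (exact permutation p = 0.0159). Spike-in spots averaged 0.31 lower in RCS than in control, with an exact permutation p of 0.00794. How far these array properties carry into the members was not tested, and counts that change without these arrays are given with them.

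RCS set the translation genes furthest from control. Of the 61 members, 25 were higher and 10 lower in RCS than in control, while 28.8% of all genes were higher and 25.7% lower in that comparison. The members' shares were 41.0% higher and 16.4% lower, and their median difference was 0.16 against -0.00 over all genes. With the genes cut by mean signal into 3 parts of like size, 45 members were in the brightest part, where 37.7% of all genes were higher and 20.1% lower. The count of 25 higher and 10 lower members is therefore near the background of genes of like signal. After quantile normalization 19 members were higher and 12 lower. The 5 arrays of RCS lay wholly above the 5 of control for 22 members and wholly below for 8, where 23.3% and 16.9% of all genes did. RCO had 5 members higher and 3 lower than control (all genes 11.3% and 4.26%), and SWOP had 4 higher and 1 lower (all genes 4.66% and 3.5%). Groups lay wholly apart for 2 members above and 4 below control in RCO (5.81% and 2.71% of all genes), and for 7 above and 1 below in SWOP (9.64% and 5.42%). The 3 comparisons use the same 5 control arrays.

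**Figure D1:**
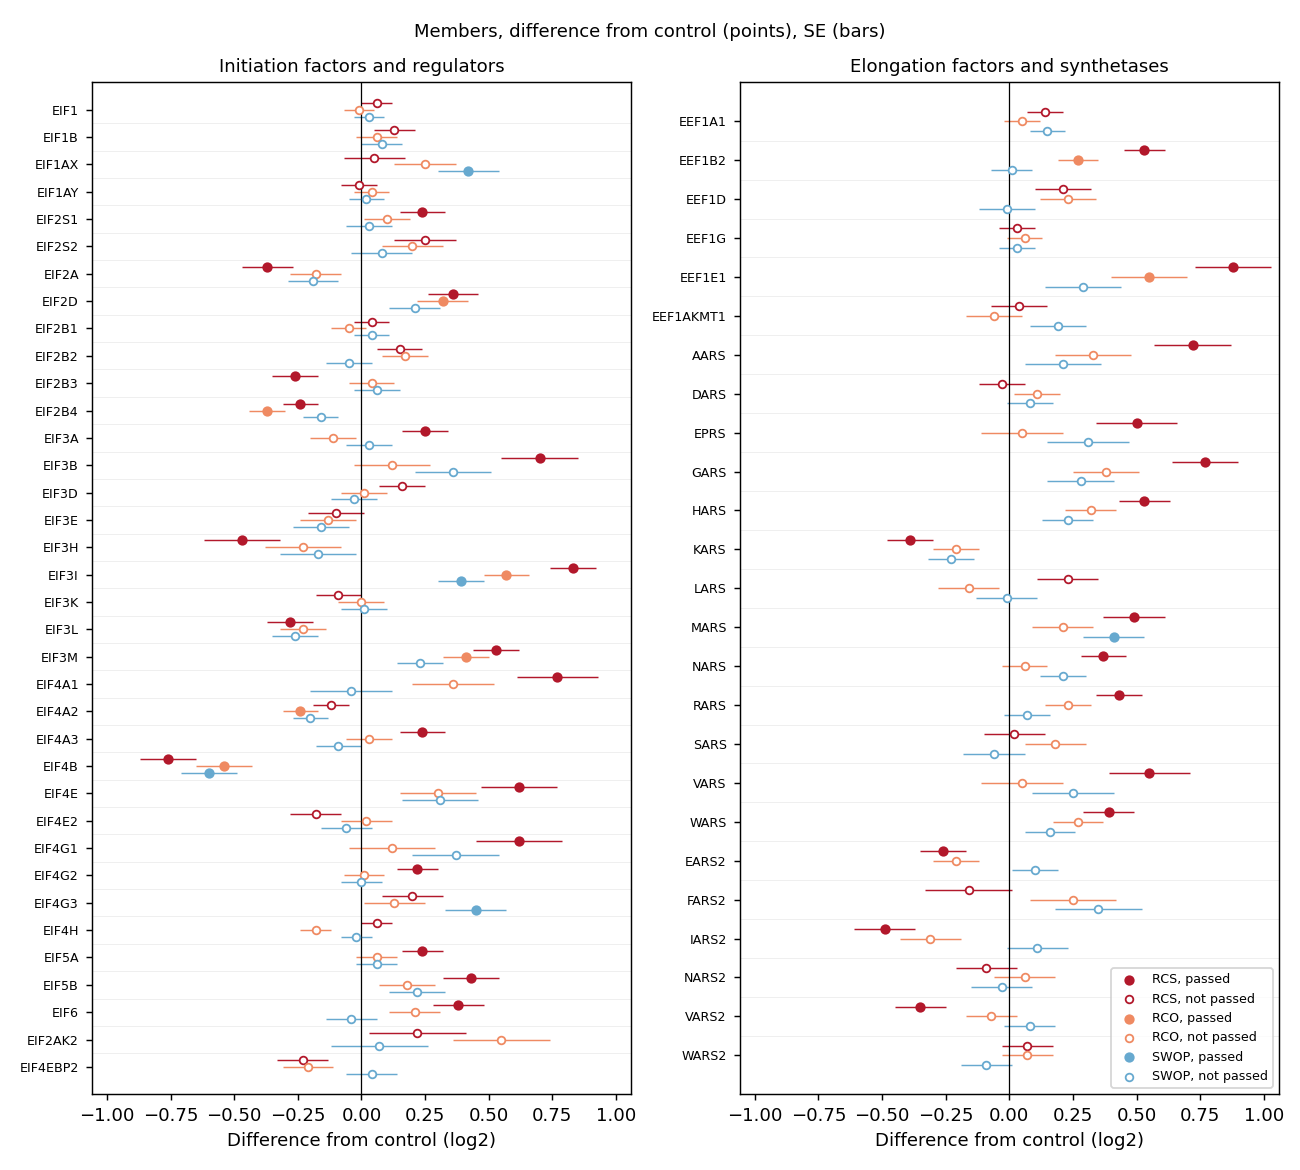
Difference from control (log2, x axis) of each of the 61 members in RCS, RCO and SWOP, with the standard error of the limma fit as bars. Filled points passed at an adjusted p below 0.05: 35 in RCS, 8 in RCO and 5 in SWOP. EIF4B lies left of 0 with filled points in all 3 groups.

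Most synthetases of the cytosol were higher in RCS. Of the 13 measured, 9 were higher in RCS than in control and 1 was lower, where 28.8% of all genes were higher and 25.7% lower, and 37.7% and 20.1% of the brightest part. The median difference was 0.43, against -0.00 over all genes. Glycyl-tRNA synthetase, encoded by GARS for both the cytosol and the mitochondrion, stood at 11.23, 10.77, 11.12, 10.86 and 10.69 in RCS and 10.15, 10.06, 10.10, 10.18 and 10.31 in control. The RCO arrays had 10.20, 10.92, 10.81, 10.49 and 10.27 and the SWOP arrays 10.35, 10.46, 10.42, 10.61 and 10.37. SWOP lay wholly between RCS and control, and RCO overlapped with both. The difference between RCS and control was 0.77 (SE 0.13, 1.71-fold, adjusted p 0.0001), and the other 2 probe sets of GARS passed as well, with 0.63 and 0.61.

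AARS, the alanyl-tRNA synthetase, had 10.62, 10.28, 10.50, 10.48 and 10.54 in RCS, 9.51, 10.18, 10.37, 10.36 and 10.05 in RCO, 9.58, 9.97, 9.85, 10.34 and 10.13 in SWOP and 9.60, 9.83, 9.71, 9.76 and 9.91 in control. RCS and control did not overlap, replicate 1 of RCO and of SWOP lay below every control, and the RCS difference was 0.72 (SE 0.15, 1.65-fold, adjusted p 0.00059). A second AARS probe set of lower signal differed by -0.15 and did not pass. HARS, for histidine, reached 8.20, 7.94, 8.51, 8.26 and 8.11 in RCS, 7.88, 8.06, 8.17, 8.12 and 7.71 in RCO, 7.92, 7.83, 7.93, 7.95 and 7.90 in SWOP and 7.56, 7.54, 7.75, 7.64 and 7.87 in control. Its difference was 0.53 (SE 0.10, 1.45-fold, adjusted p 0.00038) without overlap, while its other probe set showed 0.02. RARS, for arginine, showed 10.87, 10.61, 11.02, 10.79 and 10.68 in RCS, 10.35, 10.64, 10.84, 10.60 and 10.54 in RCO, 10.38, 10.45, 10.37, 10.55 and 10.40 in SWOP and 10.43, 10.27, 10.36, 10.32 and 10.42 in control. RCS lay above both SWOP and control on every array, by 0.43 (SE 0.09, 1.35-fold, adjusted p 0.00057) against control and 0.36 (SE 0.09, 1.29-fold, adjusted p 0.0036) against SWOP.

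**Figure D2:**
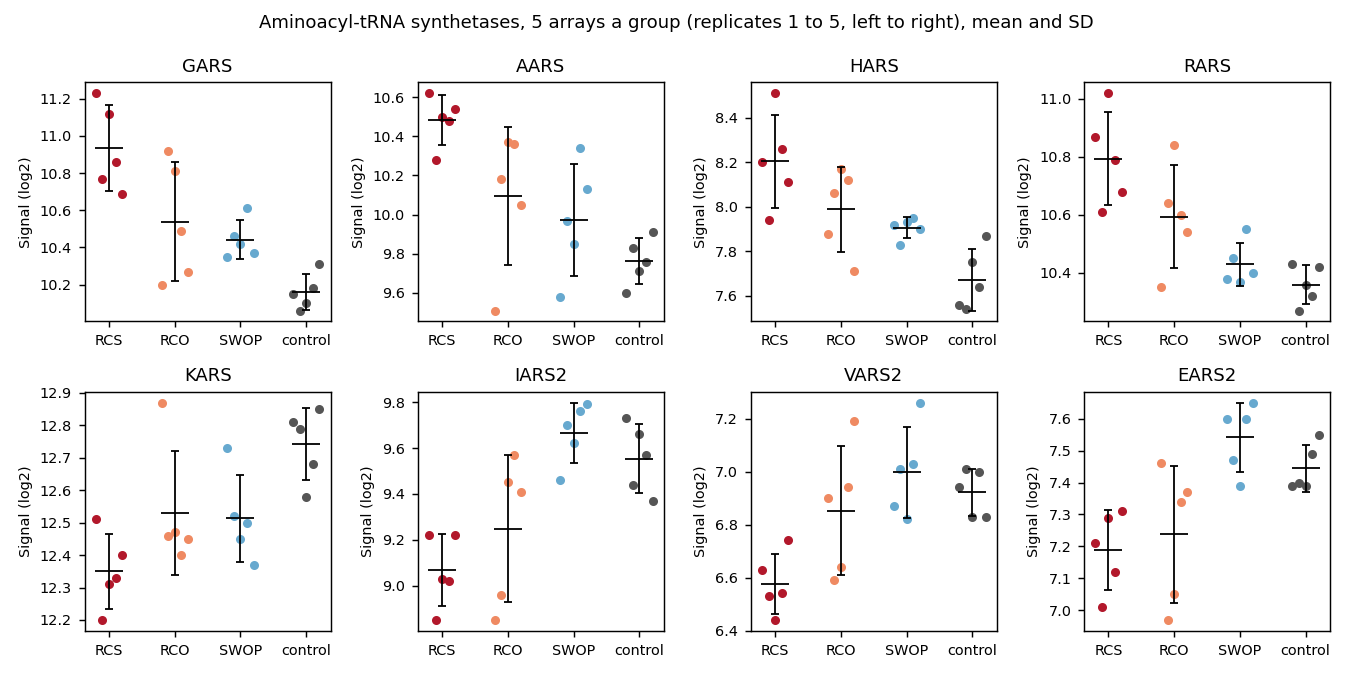
Log2 signal (y axes) of 8 synthetases on every array of RCS, RCO, SWOP and control, with replicates 1 to 5 from left to right; horizontal bars are means and vertical bars SDs. GARS, AARS, HARS and RARS are higher in RCS than on any control array, and KARS, IARS2, VARS2 and EARS2 are lower.

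The other 5 increases were those of NARS, MARS, WARS, VARS and EPRS. NARS (asparagine) ranged over 10.65 to 10.90 in RCS and 10.26 to 10.49 in control, with a difference of 0.37 (SE 0.09, 1.29-fold, adjusted p 0.0019). MARS, which charges both initiator and elongator tRNAs with methionine, ranged over 9.30 to 9.64 in RCS, 8.78 to 9.37 in RCO, 9.12 to 9.67 in SWOP and 8.82 to 9.19 in control. Its difference from control was 0.49 (SE 0.12, 1.40-fold, adjusted p 0.003) in RCS. WARS, for tryptophan and known as a gene that interferons raise, differed by 0.39 (SE 0.10, 1.31-fold, adjusted p 0.0031). A dimmer WARS probe set passed with 0.57 (adjusted p 0.0085), and another dimmer one showed -0.01 (adjusted p 0.94). VARS, for valine, differed by 0.55 (SE 0.16, 1.46-fold, adjusted p 0.01), with 8.29 to 8.84 in RCS and 7.89 to 8.27 in control. EPRS, the single protein that charges both glutamate and proline, differed by 0.50 (SE 0.16, 1.41-fold, adjusted p 0.017). Its RCS and control arrays touched at 10.19, and the call ended without RCS replicate 3 (0.42, adjusted p 0.054) and after quantile normalization (0.37, adjusted p 0.071) or averaging of its probe sets (0.37, adjusted p 0.061).

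KARS ran the other way. This gene, which encodes lysyl-tRNA synthetase for both the cytosol and the mitochondrion, had 12.51, 12.20, 12.31, 12.33 and 12.40 in RCS, 12.87, 12.46, 12.47, 12.40 and 12.45 in RCO, 12.73, 12.52, 12.45, 12.50 and 12.37 in SWOP and 12.81, 12.79, 12.58, 12.68 and 12.85 in control. Every RCS array was below every control array, RCO replicate 1 was the highest of all 20, and the RCS difference was -0.39 (SE 0.09, 1.31-fold, adjusted p 0.0021). DARS, LARS and SARS, for aspartate, leucine and serine, did not pass, with -0.03, 0.23 and 0.02. A dimmer DARS probe set did pass at 0.52 (adjusted p 0.016). Among the 6 members that are synthetases of the multi-tRNA synthetase complex (DARS, EPRS, KARS, LARS, MARS and RARS), 3 were higher, 1 was lower and 2 did not pass in RCS. Of all genes 28.8% were higher and 25.7% lower in that comparison, so calls in both directions are common among genes at large.

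Mitochondrial synthetases went down or did not pass. Of the 6 measured, 3 were lower in RCS than in control, the other 3 did not pass, and the median difference was -0.21. In that comparison 25.7% of all genes were lower, with 37.1% in the dimmest, 19.9% in the middle and 20.1% in the brightest part by mean signal. NARS2, VARS2 and WARS2 lie in the dimmest part. IARS2, the mitochondrial isoleucyl-tRNA synthetase, had 9.22, 8.85, 9.03, 9.02 and 9.22 in RCS, 8.85, 8.96, 9.45, 9.57 and 9.41 in RCO, 9.46, 9.70, 9.62, 9.76 and 9.79 in SWOP and 9.73, 9.44, 9.66, 9.57 and 9.37 in control. RCS lay below both SWOP and control on every array, and RCO overlapped with all of them. The difference was -0.49 (SE 0.12, 1.40-fold, adjusted p 0.0038) from control and -0.60 (SE 0.12, 1.51-fold, adjusted p 0.0013) from SWOP. VARS2, for valine, had 6.63, 6.53, 6.44, 6.54 and 6.74 in RCS and 6.94, 7.01, 6.83, 7.0 and 6.83 in control, with 6.59 to 7.19 in RCO and 6.82 to 7.26 in SWOP. All 5 RCS arrays were lower than any SWOP or control array, with a difference of -0.35 (SE 0.10, 1.27-fold, adjusted p 0.011) from control. EARS2, for glutamate, ranged over 7.01 to 7.31 in RCS, 6.97 to 7.46 in RCO, 7.39 to 7.65 in SWOP and 7.39 to 7.55 in control. Its RCS difference of -0.26 (SE 0.09, 1.19-fold, adjusted p 0.028) lost its call without control replicate 4 or 5 or RCS replicate 2 or 4 (-0.24 to -0.21).

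FARS2, NARS2 and WARS2, for phenylalanine, asparagine and tryptophan, differed from control by -0.16, -0.09 and 0.07 in RCS and did not pass. FARS2 was lower in RCS than in SWOP, with 7.99 to 8.55 against 8.63 to 8.93 and a difference of -0.51 (SE 0.17, 1.42-fold, adjusted p 0.026). That call was lost without any of SWOP replicates 4 and 5 and RCS replicates 2, 3 and 4 (-0.47 to -0.45). NARS2 had dim signals, 4.13 to 4.94 over all arrays. For asparagine, glutamate, tryptophan and valine both the cytosolic and the mitochondrial enzyme are among the members. In RCS each of these 4 cytosolic enzymes was higher, VARS2 and EARS2 were lower, and NARS2 and WARS2 did not pass. Of all genes 28.8% were higher and 25.7% lower in that comparison. For phenylalanine the cytosolic subunits FARSA and FARSB were measured but lie outside the members' rule. FARSA was higher in RCS, and FARSB and FARS2 did not pass. The difference between the enzymes of a pair was not tested. EPRS and IARS2 are neighbours in the RefSeq annotation of Sscrofa11.1, with 1 protein-coding gene, BPNT1, between them. EPRS was higher and IARS2 lower in RCS.

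Taken array by array, the median deviation of the 13 cytosolic synthetases from their control means was 0.42, 0.28, 0.66, 0.48 and 0.32 in RCS. It was -0.01, 0.33, 0.38, 0.24 and 0.11 in RCO, 0.02, 0.19, 0.12, 0.33 and 0.21 in SWOP, and -0.01, -0.07, -0.01, -0.00 and 0.11 in control. The 6 mitochondrial synthetases had medians of -0.14, -0.40, -0.31, -0.32 and -0.14 in RCS and 0.05, -0.32, -0.10, 0.02 and 0.08 in RCO. In SWOP they had -0.01, 0.06, -0.05, 0.13 and 0.23, and in control 0.02, -0.05, -0.07, 0.04 and 0.04. Each of the 5 RCS hearts thus had a positive median for the cytosolic and a negative one for the mitochondrial enzymes. RCO replicate 2, alone among the RCO arrays, lay within the range of the RCS medians for both classes. After quantile normalization the RCS medians against control were 0.30 for the cytosolic and -0.29 for the mitochondrial class.

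**Figure D3:**
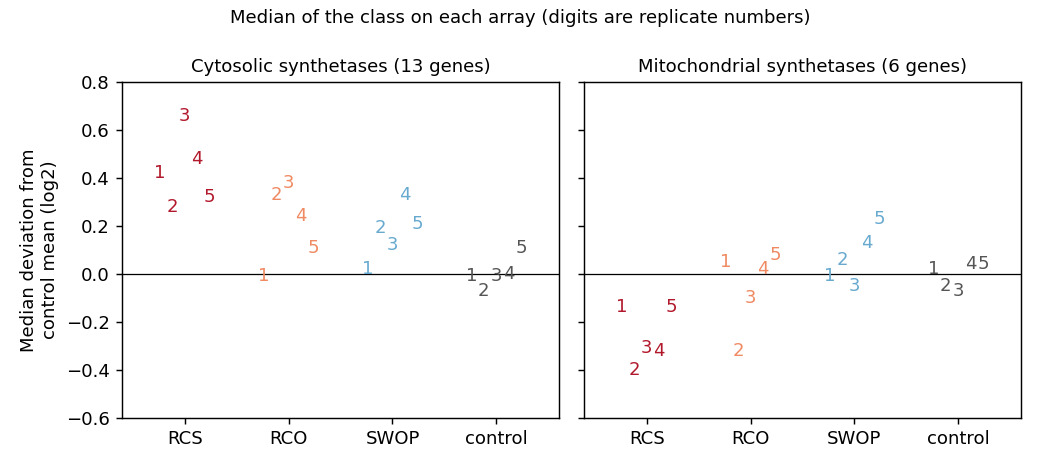
Median deviation from the control mean (log2, y axis) of the 13 cytosolic (left) and 6 mitochondrial (right) synthetases on each array; digits are replicate numbers within RCS, RCO, SWOP and control. RCS medians run from 0.28 to 0.66 for the cytosolic class and from -0.40 to -0.14 for the mitochondrial class.

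Among the factors that deliver the initiator tRNA, results were mixed. EIF1 and EIF1B, which guard the choice of the start codon, and EIF1AX did not pass in RCS. EIF1AY, whose gene lies on the Y chromosome in RefSeq, read 3.67 to 3.93 on all arrays of these female pigs. EIF2S1, the alpha subunit of EIF2 that the stress kinases phosphorylate, ranged over 10.86 to 11.20 in RCS and 10.62 to 10.92 in control. Its difference of 0.24 (SE 0.09, 1.18-fold, adjusted p 0.033) was lost without control replicate 2 or 5 or RCS replicate 1 or 3 (0.19 to 0.22), and after quantile normalization (0.12). EIF2S2, the beta subunit, lay above control on every RCS array but did not pass, with 0.25 (SE 0.12, 1.19-fold, adjusted p 0.096). EIF2D, which can bring an initiator tRNA to the ribosome without GTP and takes part in ribosome recycling, had 7.77, 7.73, 8.01, 7.87 and 7.78 in RCS and 7.18, 7.52, 7.39, 7.53 and 7.73 in control. That is a difference of 0.36 (SE 0.10, 1.29-fold, adjusted p 0.0052), with the groups touching at 7.73. EIF2A, a separate factor for alternative initiation, was lower, with 10.21 to 10.78 in RCS, 10.74 to 10.93 in control and a difference of -0.37 (SE 0.10, 1.29-fold, adjusted p 0.0063). A dimmer EIF2A probe set showed -0.02 (adjusted p 0.88).

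EIF2B recharges EIF2 with GTP, and of its 4 measured subunits 2 were lower in RCS than in control and the other 2 did not pass. Of all genes 25.7% were lower in that comparison. EIF2B4, the delta subunit, had 9.14, 9.09, 9.15, 9.17 and 9.19 in RCS, 8.88, 8.90, 9.13, 9.08 and 9.11 in RCO, 9.14, 9.22, 9.20, 9.31 and 9.27 in SWOP and 9.34, 9.59, 9.31, 9.28 and 9.42 in control. All RCS and RCO arrays were below all controls, with differences of -0.24 (SE 0.07, 1.18-fold, adjusted p 0.0097) in RCS and -0.37 (SE 0.07, 1.29-fold, adjusted p 0.0034) in RCO. EIF2B3, the gamma subunit, was at 8.41, 8.05, 8.31, 8.34 and 8.44 in RCS and 8.48 to 8.62 in control. It was lower in RCS than in each other group without overlap, with a difference of -0.26 (SE 0.09, 1.20-fold, adjusted p 0.017) from control, and RCS replicate 2 carried that call (-0.20, adjusted p 0.057 without it). EIF2B1 and EIF2B2, the alpha and beta subunits, differed by 0.04 and 0.15 and did not pass.

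EIF3, the largest initiation complex, had subunits in both directions. Of its 9 measured subunits, 4 were higher and 2 lower in RCS than in control, where all genes had 28.8% higher and 25.7% lower. EIF3I had 10.27, 10.17, 10.24, 10.29 and 10.18 in RCS, 10.24, 9.83, 10.04, 10.05 and 9.70 in RCO, 9.85, 9.82, 9.67, 9.81 and 9.78 in SWOP and 9.27, 9.21, 9.58, 9.34 and 9.59 in control. All 3 ischemic groups lay above control without overlap, by 0.83 (SE 0.09, 1.78-fold, adjusted p 2.9e-06) in RCS, 0.57 (SE 0.09, 1.49-fold, adjusted p 0.0018) in RCO and 0.39 (SE 0.09, 1.31-fold, adjusted p 0.022) in SWOP. EIF3B, the scaffold that binds EIF3I, had 9.42, 9.46, 9.73, 9.50 and 9.22 in RCS, 8.10, 9.20, 9.18, 9.12 and 8.81 in RCO, 9.05, 9.05, 9.21, 9.15 and 9.14 in SWOP and 8.63, 8.64, 8.86, 8.87 and 8.82 in control. RCS exceeded every other array, and RCO replicate 1 was the lowest of all 20. The RCS difference was 0.70 (SE 0.15, 1.63-fold, adjusted p 0.0012), and those of RCO and SWOP, 0.12 and 0.36, did not pass. Without RCO replicate 1 both passed, with 0.31 (adjusted p 0.043) and 0.36 (adjusted p 0.024).

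EIF3M ranged over 10.87 to 11.19 in RCS, 10.67 to 11.22 in RCO, 10.63 to 10.80 in SWOP and 10.37 to 10.57 in control. It was higher by 0.53 (SE 0.09, 1.45-fold, adjusted p 0.00013) in RCS and 0.41 (SE 0.09, 1.33-fold, adjusted p 0.0078) in RCO, while a dimmer EIF3M probe set showed -0.09 in RCS and the mean of both did not pass (0.22, adjusted p 0.06). EIF3A, the largest subunit, was 11.42 to 11.58 in RCS and 11.20 to 11.34 in control. Its difference of 0.25 (SE 0.09, 1.19-fold, adjusted p 0.029) was lost without control replicate 2, 4 or 5 or RCS replicate 2 or 3 (0.23 to 0.24), and after quantile normalization (0.12). EIF3H had 12.20, 11.64, 11.68, 11.71 and 11.71 in RCS, 12.68, 11.84, 11.91, 11.91 and 11.84 in RCO, 12.53, 11.98, 11.98, 12.01 and 11.95 in SWOP and 12.21, 12.33, 12.15, 12.27 and 12.35 in control. Replicate 1 was far above the other 4 arrays in each ischemic group, and the RCS difference was -0.47 (SE 0.15, 1.39-fold, adjusted p 0.014). EIF3L was lower with overlapping arrays, at a difference of -0.28 (SE 0.09, 1.21-fold, adjusted p 0.014). EIF3D, EIF3E and EIF3K did not pass, with 0.16, -0.10 and -0.09.

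**Figure D4:**
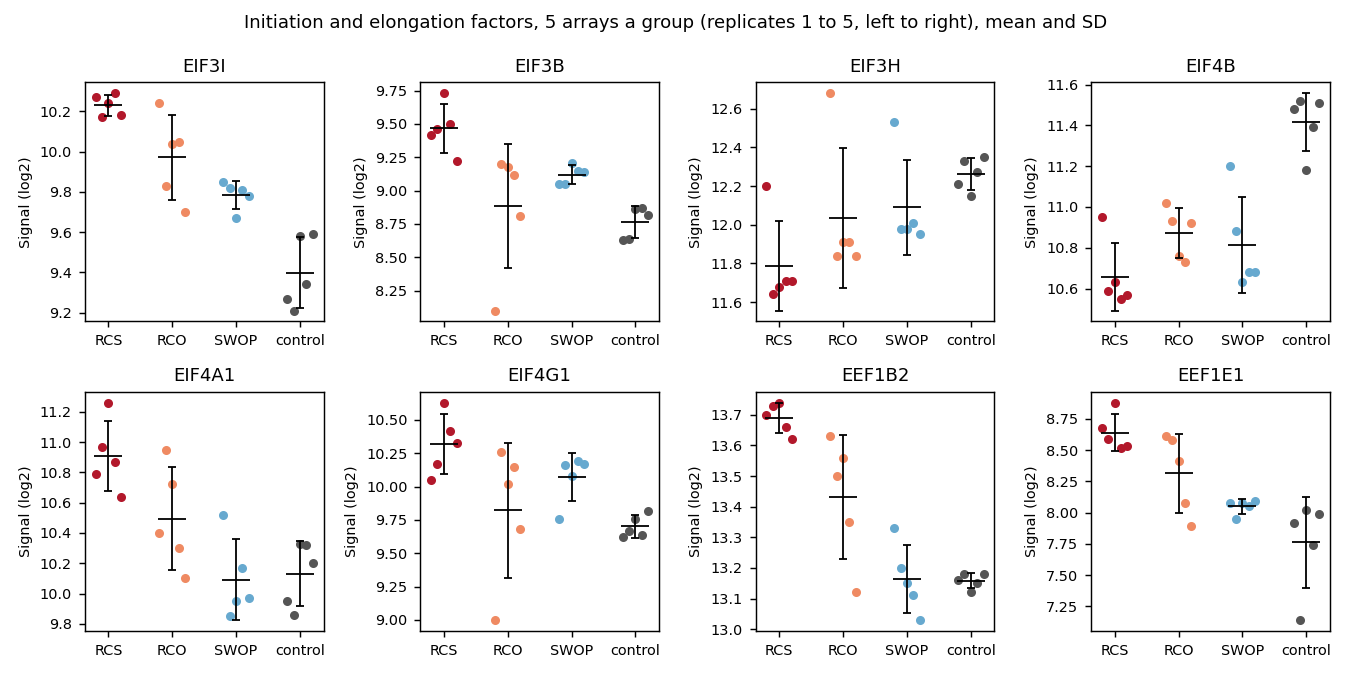
Log2 signal (y axes) of 6 initiation and 2 EEF genes on every array of RCS, RCO, SWOP and control, with replicates 1 to 5 from left to right; horizontal bars are means and vertical bars SDs. EIF3I stands above control in RCS, RCO and SWOP, EIF4B stands below it, and RCO replicate 1 is the lowest array for EIF3B and EIF4G1.

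Of the 10 factors of the cap-binding EIF4 group, 5 were higher and 1 lower in RCS than in control, where 28.8% of all genes were higher and 25.7% lower. EIF4A1, an RNA helicase that unwinds the leader of the mRNA, had 10.79, 10.97, 11.26, 10.87 and 10.64 in RCS, 10.40, 10.95, 10.72, 10.30 and 10.10 in RCO, 10.52, 9.85, 9.95, 10.17 and 9.97 in SWOP and 9.95, 9.86, 10.33, 10.32 and 10.20 in control. RCS was above SWOP and control on all arrays, by 0.77 (SE 0.16, 1.71-fold, adjusted p 0.00067) from control. Its close relative EIF4A2 read 12.95 to 13.21 in RCS, 12.76 to 13.03 in RCO, 12.93 to 13.02 in SWOP and 13.09 to 13.29 in control. It was lower in RCO, with a difference of -0.24 (SE 0.07, 1.18-fold, adjusted p 0.027), and did not pass in RCS, with -0.12. EIF4A1 and EIF4A2 are similar in sequence, and how far each probe set reads the other is not known here. EIF4E, the cap-binding protein, had 8.48, 7.97, 8.31, 7.98 and 8.12 in RCS and 7.49, 7.43, 7.63, 7.51 and 7.68 in control, without overlap and with a difference of 0.62 (SE 0.15, 1.54-fold, adjusted p 0.0025). RCO ranged over 7.45 to 8.53 and SWOP over 7.70 to 8.07.

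EIF4G1, the scaffold between EIF4E and EIF3, had 10.05, 10.17, 10.63, 10.42 and 10.33 in RCS, 9.0, 10.26, 10.02, 10.15 and 9.68 in RCO, 9.76, 10.16, 10.08, 10.19 and 10.17 in SWOP and 9.62, 9.67, 9.76, 9.64 and 9.82 in control. RCS did not overlap with control, and the difference was 0.62 (SE 0.17, 1.53-fold, adjusted p 0.0069), but a dimmer probe set of EIF4G1 showed 0.05 and the mean of both did not pass (0.33, adjusted p 0.065). EIF4G2, a relative that lacks the EIF4E site, rose by 0.22 (SE 0.08, 1.16-fold, adjusted p 0.033), and EIF4A3, the helicase of the exon junction complex, by 0.24 (SE 0.09, 1.18-fold, adjusted p 0.029). Both calls were lost after quantile normalization (0.12 and 0.11). With single arrays left out, EIF4G2 lost its call without control replicate 2, 4 or 5 or RCS replicate 3 or 4 (0.17 to 0.22), and EIF4A3 without control replicate 1, 2 or 3 or RCS replicate 3 (0.19 to 0.24). EIF4G3, EIF4H and EIF4E2 did not pass in RCS. For EIF4E2, a cap-binding protein that represses translation, the probe sets disagreed: the brightest showed -0.18 and another, of lower signal, 0.91 (adjusted p 0.00052).

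EIF4B, which stimulates the EIF4A helicases, was the one member that passed as lower than control in all 3 ischemic groups. It had 10.95, 10.59, 10.63, 10.55 and 10.57 in RCS, 11.02, 10.93, 10.76, 10.73 and 10.92 in RCO, 11.20, 10.88, 10.63, 10.68 and 10.68 in SWOP and 11.48, 11.52, 11.18, 11.39 and 11.51 in control. RCS and RCO were below every control array, and SWOP replicate 1 alone among the SWOP arrays was above the lowest control. The differences were -0.76 (SE 0.11, 1.69-fold, adjusted p 2.6e-05) in RCS, -0.54 (SE 0.11, 1.46-fold, adjusted p 0.004) in RCO and -0.60 (SE 0.11, 1.52-fold, adjusted p 0.0082) in SWOP. The other EIF4B probe set had the same sign, with -0.39 in RCS (adjusted p 0.034), -0.32 in RCO (0.17) and -0.24 in SWOP (0.31). No difference in EIF4B between the ischemic groups passed.

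All 3 measured EIF5 and EIF6 factors were higher in RCS than in control, where 28.8% of all genes and 37.7% of the brightest part were higher. EIF5B, the GTPase that joins the ribosomal subunits, had 8.63, 8.51, 8.84, 8.55 and 8.60 in RCS and 8.40, 8.02, 8.22, 8.27 and 8.08 in control, a difference of 0.43 (SE 0.11, 1.35-fold, adjusted p 0.0046) without overlap. Its 2 dimmer probe sets showed -0.17 and 0.08, and the mean of all 3 did not pass (0.11, adjusted p 0.3). EIF5A, which helps the ribosome past difficult peptide bonds and carries the modified residue hypusine, was higher by 0.24 (SE 0.08, 1.18-fold, adjusted p 0.021). That call was lost without control replicate 2 or RCS replicate 2 or 3 (0.20 to 0.21), after quantile normalization (0.12) and with its probe sets averaged (0.29, adjusted p 0.12). EIF6, which keeps the large subunit from joining too early and takes part in its assembly, had 10.47, 10.25, 10.47, 10.32 and 10.24 in RCS, 10.10, 10.26, 10.34, 10.13 and 10.09 in RCO, 10.18, 9.84, 9.95, 9.90 and 9.80 in SWOP and 9.69, 9.89, 9.96, 10.15 and 10.16 in control. RCS was above SWOP and control on all arrays, by 0.38 (SE 0.10, 1.30-fold, adjusted p 0.0032) from control.

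Both regulators of initiation missed the threshold. EIF2AK2, the kinase PKR, which double-stranded RNA activates, had 9.45, 8.81, 9.51, 8.91 and 8.61 in RCS, 8.98, 9.65, 9.67, 9.30 and 9.33 in RCO, 8.97, 8.57, 9.24, 8.99 and 8.77 in SWOP and 8.96, 8.60, 8.67, 8.56 and 9.38 in control. Its largest difference was in RCO, 0.55 (SE 0.19, 1.47-fold, adjusted p 0.066), and it passed without RCO replicate 1 (0.65, adjusted p 0.033). EIF4EBP2, which sequesters EIF4E when not phosphorylated, had 10.58, 10.40, 10.70, 10.54 and 10.69 in RCS and 10.75, 11.02, 10.78, 10.71 and 10.79 in control. RCS lay below control without overlap, yet -0.23 (SE 0.10, 1.17-fold, adjusted p 0.076) did not pass. It did pass after quantile normalization (-0.35, adjusted p 0.0094), whereas 1 of its other probe sets was higher in RCS (0.32, adjusted p 0.013).

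Of the 6 members with EEF symbols, grouped here as elongation, 2 were higher in RCS than in control and the other 4 did not pass. The group includes EEF1E1 and EEF1AKMT1, which are not themselves elongation factors. That share of 33.3% is near the 28.8% of all genes and the 37.7% of the brightest part that were higher. EEF1B2, a subunit of the exchange complex that recharges EEF1A, had 13.70, 13.73, 13.74, 13.66 and 13.62 in RCS, 13.63, 13.50, 13.56, 13.35 and 13.12 in RCO, 13.33, 13.20, 13.15, 13.11 and 13.03 in SWOP and 13.16, 13.18, 13.12, 13.15 and 13.18 in control. RCS was above SWOP and control on every array. The differences from control were 0.53 (SE 0.08, 1.45-fold, adjusted p 5.5e-05) in RCS and 0.27 (SE 0.08, 1.21-fold, adjusted p 0.038) in RCO. EEF1E1, also called AIMP3, is a scaffold of the multi-tRNA synthetase complex that resembles EEF1B in sequence. It had 8.68, 8.59, 8.88, 8.52 and 8.53 in RCS, 8.61, 8.58, 8.41, 8.08 and 7.89 in RCO, 8.08, 7.95, 8.08, 8.05 and 8.09 in SWOP and 7.92, 7.14, 8.02, 7.74 and 7.99 in control. RCS again lay above SWOP and control on every array, by 0.88 (SE 0.15, 1.84-fold, adjusted p 0.00015) from control, and its other probe set passed too, with 0.66. EEF1D and EEF1G, the other exchange subunits, differed by 0.21 and 0.03 and did not pass. EEF1AKMT1, a methyltransferase of EEF1A, differed by 0.04, and its other probe set by -0.36 (adjusted p 0.013).

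EEF1A1, the factor that carries aminoacyl-tRNA to the ribosome, has its brightest spot among the array's control spots, which stayed out of the fit. That spot, for the middle of the transcript, read 14.56, 14.65, 14.68, 14.62 and 14.52 in RCS and 14.17, 14.19, 14.20, 14.43 and 14.20 in control. It read 14.39, 14.61, 14.54, 14.31 and 14.21 in RCO and 14.26, 14.17, 14.04, 14.07 and 14.07 in SWOP. All RCS arrays were above all controls, by 0.37 (two-sided exact permutation p = 0.00794). RCO differed by 0.17 (exact p = 0.0952) and SWOP by -0.12 (exact p = 0.0952). The brightest tested probe set of EEF1A1 did not pass in RCS, with 0.14 (SE 0.07, 1.10-fold, adjusted p 0.12), and its dimmest one passed with 0.97. EEF1A1 belongs to a family with near-identical copies, so the signals of these spots may include them.

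In RCO, 8 members passed against control. Higher were EIF3I and EIF3M, EEF1B2 and EEF1E1, and EIF2D by 0.32 (SE 0.10, 1.25-fold, adjusted p 0.041). Lower were EIF4B, EIF2B4 and EIF4A2. No synthetase passed in limma, and 8 of the 19 did at an unadjusted p below 0.05, as did 2359 of all 6765 genes. The largest difference among the 13 cytosolic ones was 0.38 (SE 0.13, 1.30-fold, adjusted p 0.061) for GARS, and that of HARS was 0.32 (SE 0.10, 1.24-fold, adjusted p 0.051). EEF1E1 differed by 0.55 (SE 0.15, 1.47-fold, adjusted p 0.025), with RCO replicate 5 among the controls and the others above them. The calls of EIF2B4, EIF3I and EIF4B stood under every alternative. EIF2D lost its call without 10 of the single arrays (0.25 to 0.34), EEF1B2 without any control array or RCO replicate 1, 2 or 3 (0.22 to 0.28), EIF4A2 without control replicate 1, 2 or 4 or RCO replicate 4 (-0.24 to -0.20), and EEF1E1 without control replicate 2 or RCO replicate 2 or 3 (0.40 to 0.53). EIF3M lost it when all probe sets of a gene were averaged (0.18).

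The RCO count turned on single arrays. Without RCO replicate 1 it was 15, and the synthetases AARS (0.48), GARS (0.46), HARS (0.34), WARS (0.34) and RARS (0.30) were then higher and KARS lower (-0.30), with adjusted p of 0.016 to 0.043. The share of all genes that passed without that array was not counted. Leaving it out can also narrow the spread that all groups share in the fit. For EIF3B in SWOP against control the difference stayed at 0.36, and its SE went from 0.15 to 0.09. The RCO count was 5 without control replicate 1, 4 without control replicate 2, 5 without control replicate 4 and 5 without RCO replicate 3. Without both RCO replicates 2 and 3 it was 5 as well. After quantile normalization 4 members were higher in RCO, EIF3I, EIF3M, EEF1E1 and HARS, and 6 lower, EIF2B4, EIF3L, EIF4A2, EIF4B, EIF4H and IARS2.

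In SWOP, 5 members passed. EIF1AX, which helps to scan for the start codon, had 11.0, 11.14, 11.09, 11.07 and 11.06 in SWOP and 10.93, 10.76, 10.74, 10.49 and 10.35 in control, without overlap. Its difference was 0.42 (SE 0.12, 1.34-fold, adjusted p 0.047), and RCS showed 10.94, 10.61, 10.36, 10.77 and 10.84, within the control range but for 1 array. A second EIF1AX probe set of similar signal showed 0.22 in SWOP (adjusted p 0.27), and the mean of both did not pass (0.32, adjusted p 0.085). EIF4G3, a further scaffold of the EIF4G family, had 9.62, 10.10, 9.98, 9.86 and 9.89 in SWOP and 9.66, 9.23, 9.71, 9.37 and 9.21 in control, with overlap and a difference of 0.45 (SE 0.12, 1.37-fold, adjusted p 0.034). MARS was higher in SWOP by 0.41 (SE 0.12, 1.33-fold, adjusted p 0.045), EIF3I was higher and EIF4B lower as given above. EIF4B alone kept its call with each array left out. EIF1AX lost its call without 13 of the single arrays (0.34 to 0.44), MARS without 10 (0.34 to 0.46), EIF4G3 without 7 (0.40 to 0.46) and EIF3I without control replicate 2 or 4 or SWOP replicate 2 or 4 (0.34 to 0.38). After quantile normalization none was higher and 4 were lower, EIF4B with EIF2B4, EIF3L and EIF4A2. The SWOP count was 1 without control replicate 2 or 4 or SWOP replicate 2 or 4, 2 without SWOP replicate 3 or 5, 3 without control replicate 5 or RCS replicate 4 or 5, and 8 without RCO replicate 1.

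Differences between the ischemic groups were tested directly. Between RCS and SWOP 12 members were higher in RCS and 6 lower (all genes 20.3% and 17.7%), and their arrays lay wholly apart for 12 above and 7 below (17.9% and 14.3%). Higher were AARS, GARS, HARS and RARS among the synthetases, EEF1B2 and EEF1E1 among the EEF genes, and EIF3I, EIF3M, EIF4A1, EIF4A3, EIF4G2 and EIF6. Lower were 4 of the 6 mitochondrial synthetases, EARS2, FARS2, IARS2 and VARS2, with EIF1AX and EIF2B3. EIF4A1 had the widest gap of these, 0.81 (SE 0.16, 1.76-fold, adjusted p 0.00074). EEF1E1 differed by 0.59 (SE 0.15, 1.51-fold, adjusted p 0.0059), GARS by 0.49 (SE 0.13, 1.41-fold, adjusted p 0.0063) and AARS by 0.51 (SE 0.15, 1.42-fold, adjusted p 0.012). With single arrays left out, 14 of the 18 calls stood in each case, and HARS, EIF1AX, EIF4G2 and FARS2 did not. AARS and EIF3M lost theirs when a gene's probe sets were averaged (0.29, adjusted p 0.06, and -0.04).

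Between RCS and RCO 9 members were higher in RCS and 1 lower (all genes 11.7% and 9.9%), and their arrays lay wholly apart for 3 above and 1 below (3.52% and 3.44%). They were EIF3A, EIF3B, EIF4G1, EIF4H, EEF1B2, GARS, LARS, NARS and VARS, with EIF2B3 lower. EIF3A differed by 0.36 (SE 0.09, 1.28-fold, adjusted p 0.012) and did not overlap, and it was the only one to pass under every alternative. VARS differed by 0.50 (SE 0.16, 1.41-fold, adjusted p 0.04) but by 0.33 (adjusted p 0.11) without RCO replicate 1. EIF4G1 differed by 0.50 (SE 0.17, 1.41-fold, adjusted p 0.05), at the threshold, and by 0.29 (adjusted p 0.12) without that array. The count of 10 became 17 without RCO replicate 2, 16 without RCO replicate 3, 6 without RCO replicate 4, 4 without RCO replicate 5, 3 without RCS replicate 3 and 5 without RCS replicate 4. Without RCO replicates 2 and 3 together 25 members passed, among them VARS2 (-0.43), FARS2 (-0.61) and NARS2 (-0.32) as lower and EPRS (0.69) and AARS (0.51) as higher in RCS. Those 2 arrays read closer to RCS in other genes too. The fibroblast marker FN1 was at 13.98 and 13.36 on them, 9.72 to 11.79 on the other RCO arrays and 12.85 to 13.90 in RCS. The share of all genes that passed without them was not counted, so the rise cannot be read as particular to the members.

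Between RCO and SWOP 1 member was higher and 2 lower in RCO (all genes 5.54% and 6.4%), and their arrays lay wholly apart for 0 above and 2 below (3.28% and 4.01%). EEF1B2 was higher by 0.27 (SE 0.08, 1.20-fold, adjusted p 0.044), and EARS2 and IARS2 were lower, with differences of -0.30 (SE 0.09, 1.23-fold, adjusted p 0.042) and -0.42 (SE 0.12, 1.34-fold, adjusted p 0.04). None of the 3 calls held with every array left out. The count was 0 without RCO replicate 2 or SWOP replicate 2, 4 or 5, 1 without RCO replicate 1 or 3, SWOP replicate 3 or RCS replicate 4, and 6 without SWOP replicate 1. After quantile normalization EEF1B2 alone passed.

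Genes that work with the members gave a divided picture. Of 31 other translation factors 18 were measured, and in RCS 4 were higher and 4 lower than control, with a median of -0.02. Among all genes 28.8% were higher and 25.7% lower in that comparison. PABPC1, the poly(A)-binding protein that circularizes mRNA with EIF4G1, had 12.77, 12.82, 13.11, 12.95 and 12.59 in RCS and 12.06, 12.04, 12.03, 12.13 and 12.07 in control. It differed by 0.78 (SE 0.16, 1.72-fold, adjusted p 0.00054) without overlap, and RCO replicates 2 and 3, at 12.95 and 12.70, read like RCS. FARSA, the alpha subunit of the cytosolic phenylalanyl-tRNA synthetase, which the members' rule leaves out, was higher by 0.32 (SE 0.09, 1.25-fold, adjusted p 0.0088). FARSB, the beta subunit of the same enzyme, did not pass, with a difference of -0.12 (SE 0.07, 1.09-fold, adjusted p 0.18). DHX29, a helicase for structured leaders, was lower in all 3 groups, with differences of -0.56 (SE 0.13, 1.48-fold, adjusted p 0.0014) in RCS, -0.42 (SE 0.13, 1.34-fold, adjusted p 0.039) in RCO and -0.42 (SE 0.13, 1.34-fold, adjusted p 0.048) in SWOP. TSFM, the mitochondrial exchange factor, was lower in RCS, with a difference of -0.41 (SE 0.13, 1.33-fold, adjusted p 0.011). Mitochondrial TUFM, its partner, was lower in RCS than in SWOP, with 10.43, 10.03, 10.18, 10.44 and 10.55 in RCS and 10.88, 10.99, 10.81, 10.89 and 11.03 in SWOP.

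Of 28 genes of the stress response and amino acid supply that share ATF4 with the synthetases, 18 were measured. In RCS 7 were higher and 1 lower than control, with a median of 0.26, while 28.8% of all genes were higher and 25.7% lower (37.7% and 20.1% in the brightest part). The other 10 did not pass, among them ASNS, PSAT1, PHGDH, CTH and SLC3A2. ATF4 itself had 11.81, 11.47, 11.52, 11.38 and 11.33 in RCS and 10.89, 11.49, 10.74, 11.23 and 11.01 in control, overlapping through control replicate 2, with a difference of 0.43 (SE 0.12, 1.35-fold, adjusted p 0.0067). PYCR1, the last enzyme of proline synthesis, had 7.81, 8.16, 8.29, 8.06 and 7.56 in RCS, 5.99, 8.0, 7.62, 6.86 and 6.19 in RCO, 5.83, 6.16, 6.27, 6.91 and 5.91 in SWOP and 5.95, 5.69, 5.88, 5.90 and 5.68 in control. It was 4.46-fold higher in RCS (adjusted p 1.6e-05). MTHFD2, an enzyme of mitochondrial one-carbon metabolism, was higher in all 3 groups, by 1.28 (SE 0.16, 2.43-fold, adjusted p 8.2e-06) in RCS, 0.86 (SE 0.16, 1.82-fold, adjusted p 0.003) in RCO and 0.68 (SE 0.16, 1.60-fold, adjusted p 0.021) in SWOP. ALDH18A1, the first enzyme of proline synthesis, was higher by 0.83 (SE 0.21, 1.77-fold, adjusted p 0.0031), and SLC7A1, a carrier of arginine and lysine, by 0.68 (SE 0.24, 1.60-fold, adjusted p 0.027). ATF5, a transcription factor related to ATF4, was lower, with a difference of -0.50 (SE 0.09, 1.42-fold, adjusted p 0.0003). DDIT3, a further stress transcription factor, passed in RCO, by 1.07 (SE 0.32, 2.10-fold, adjusted p 0.037), and not in RCS.

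**Figure D5:**
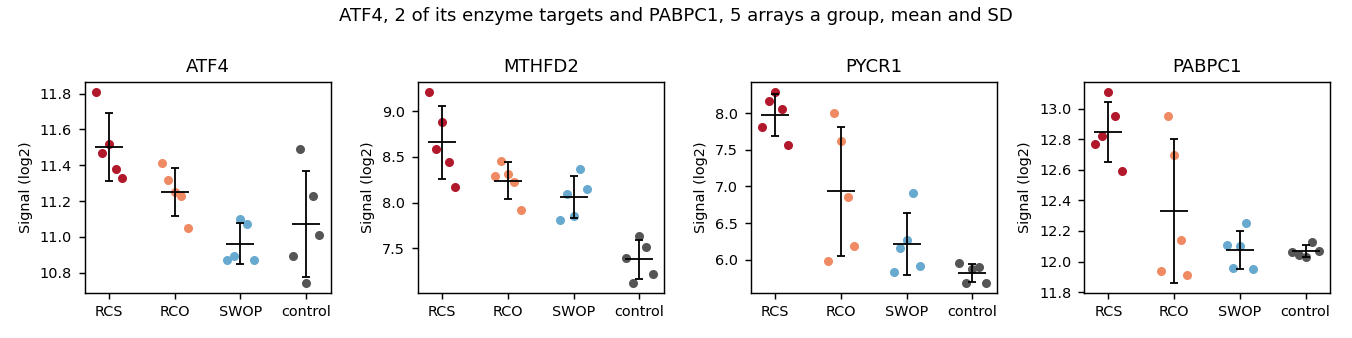
Log2 signal (y axes) of ATF4, the enzymes MTHFD2 and PYCR1 and the poly(A)-binding protein PABPC1 on every array of RCS, RCO, SWOP and control; horizontal bars are means and vertical bars SDs. PYCR1 is at 7.56 or above in RCS and at 5.95 or below in control, and RCO replicates 2 and 3 are at 8.0 and 7.62.

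Of 20 genes of MTOR and MYC control 9 were measured, and in RCS 1 was higher and 2 were lower than control, where 28.8% of all genes were higher and 25.7% lower. MYC itself had 8.79, 8.51, 8.73, 8.55 and 8.23 in RCS and 6.48, 6.75, 7.23, 10.12 and 7.76 in control. It did not pass against control and was higher in RCS than in SWOP. RPS6, the ribosomal protein that S6 kinases phosphorylate, was higher by 0.25 (SE 0.06, 1.19-fold, adjusted p 0.0024). TSC1 and TSC2, which together restrain MTOR, were lower, with differences of -0.35 (SE 0.11, 1.28-fold, adjusted p 0.016) and -0.45 (SE 0.11, 1.36-fold, adjusted p 0.0027). In RCO AKT1S1, a part of the MTOR complex, was lower, with a difference of -0.39 (SE 0.10, 1.31-fold, adjusted p 0.018), and in SWOP AKT1, a kinase upstream of MTOR, was higher by 0.45 (SE 0.11, 1.37-fold, adjusted p 0.025).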

How the data were processed

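Total RNA of 20 pig hearts, 5 in each of 4 groups, was hybridised to a porcine expression array after T7-oligo(dT) amplification and biotin labelling, per the labels' protocols. The deposited log2 values of 24123 probe sets were used as the authors made them. RMA and MAS5 are named in the submitters' processing notes, without versions or the step each served, and the log base, not stated, was taken as 2 from the range of values. The 124 control spots were left out of the tests. Of the 23999 tested probe sets, 10069 had 1 gene symbol in the platform annotation, 198 several and 13732 none, and genes were named only from the first kind. Group means were fitted over all 20 arrays with limma 3.58.1 in R 4.3.3 (16 residual degrees of freedom), with Benjamini-Hochberg adjustment over all tested probe sets. The number of arrays limits the precision, and the median standard error of a difference was 0.111 over all tested probe sets. Python 3.11.15 with numpy 2.4.6 and pandas 2.3.3 served for tables, and matplotlib 3.10.9 for figures. The fit was tested on simulated arrays.

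The members and gene lists were chosen with earlier results of these data known. Named were, in each class, up to 8 members that passed in any comparison with control, by smallest p, the brightest member of a class, and the regulators EIF2AK2 and EIF4EBP2 and the elongation factor EEF1A1 whatever their values; other members named in the text were named to account for every one. Of the 61 members, 60 were matched to RefSeq (Sscrofa11.1) by gene identifier, for names and neighbours only. No promoter or protein sequence was used here. Replicate numbers in the labels name animals within a group. The labels do not say that a number is shared between groups, and arrays were not treated as paired. Alternatives were quantile normalization, median centring, leaving out probe sets below the 30th percentile of mean signal, an intensity trend with robust spread, averaging a gene's probe sets, the replicate block, each array left out, RCO replicates 2 and 3 left out together and, chosen after the data were seen, the 2 arrays of high spike-in signal left out and the EEF1A1 control spot in the fit.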

Additional observations from a re-analysis of the deposited data

Results flagged for a closer look

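In 20 of 244 sets of 5 arrays (each member in each group), 1 array lay far outside the other 4 by Dixon's criterion at its 95% critical value of 0.71. Chance alone gives such a gap in about 1 set in 20. RCO replicate 1 accounted for 6 of them and SWOP replicate 1 for 5, the arrays with the highest spike-in signals.

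Subunits of EIF3 made up 8 of these sets. EIF3H was high on replicate 1 of each ischemic group, at 12.2 in RCS (the others 11.64 to 11.71), 12.68 in RCO (11.84 to 11.91) and 12.53 in SWOP (11.95 to 12.01). EIF3K read 12.31 on RCO replicate 1 (11.85 to 11.95), and EIF3A read 10.74 there (11.2 to 11.33). On SWOP replicate 1, EIF3D read 10.66 (10.33 to 10.37) and EIF3E 11.7 (11.25 to 11.35). EIF3L read 11.29 on control replicate 3 (11.54 to 11.6).

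RCO replicate 1 was also apart for EIF1AX at 11.33 (10.74 to 10.84), EIF4G3 at 9.15 (9.62 to 9.76) and KARS at 12.87 (12.4 to 12.47). SWOP replicate 1 was apart for EIF4G1 at 9.76 (10.08 to 10.19) and EEF1D at 11.64 (11.15 to 11.19). In RCS, EIF4B read 10.95 on replicate 1 (10.55 to 10.63) and EIF4G2 read 13.3 on replicate 3 (13.02 to 13.09). Elsewhere EEF1E1 read 7.95 on SWOP replicate 2 (8.05 to 8.09), and WARS2 read 6.07 on SWOP replicate 5 (6.38 to 6.44) and 6.13 on control replicate 2 (6.45 to 6.57). EIF2B1 read 9.08 on control replicate 1 (9.2 to 9.24), and EIF4EBP2 read 11.02 on control replicate 2 (10.71 to 10.79).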

How the results depend on the processing

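Counts of members that passed moved as follows, and shares of all genes were counted in the main fit only. RCS against RCO gave 10, but 6 after quantile normalization and 25 without RCO replicates 2 and 3. RCO against SWOP gave 3, but 1 after quantile normalization, 1 with an intensity trend and robust spread, 0 without RCO replicates 2 and 3 and 6 without RCO and SWOP replicates 1, which have high spike-in signal. RCO against control gave 8, but 5 without RCO replicates 2 and 3 and 14 without RCO and SWOP replicates 1. SWOP against control gave 5, but 3 with the intensity trend and 9 without RCO and SWOP replicates 1. With single arrays left out the counts ran over 3 to 17 for RCS against RCO, 14 to 23 for RCS against SWOP, 29 to 36 for RCS against control, 0 to 6 for RCO against SWOP, 4 to 15 for RCO against control and 1 to 8 for SWOP against control. Deviations of same-numbered arrays were correlated above 0.1 in 10 of 30 pairs (range -0.18 to 0.44), and for RCS and RCO by 0.37, 0.20, 0.44, 0.08 and 0.43, so that not every pair was above 0.1 in any comparison. With the replicate number as a block the same 6 counts were 14, 20, 36, 3, 8 and 5, and AARS (0.39), EPRS (0.45), FARS2 (-0.41) and VARS2 (-0.28) were gained for RCS against RCO. The cause of these changes was not tested.

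Of the 35 calls of RCS against control 24 stood under every alternative, of the 18 against SWOP 12, of the 10 against RCO 1, of the 8 of RCO against control 3, of the 5 of SWOP against control 1 and of the 3 of RCO against SWOP 0. Single members kept their side of the threshold in 9860 values, lost a call in 242, gained one in 135 and changed sign with a call in the main or the alternative fit in 5. Signs were not compared where a member passed in neither fit. These 5 sign changes came with averaged probe sets for EIF3M (RCS against SWOP, -0.04) and EIF4E2 (RCS against SWOP 0.26, RCS against control 0.22), whose probe sets disagree, and with the control spot for EEF1A1 (RCS against SWOP 0.48, RCO against SWOP 0.29). Neither scaling moved the median difference over all tested probe sets by more than 0.028. Single members could move further, as EIF2S1 did in RCS against control (0.24, and 0.12 after quantile normalization). Background correction and the slide as a block were not run, since they need scanner files. Dim signals limit NARS2 and EIF1AY, and with 5 arrays a group differences of small size can be missed.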
